A study of Mus musculus with 36 samples.

Results

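The mitochondrial ribosomal proteins were analysed here as the genes whose name starts with Mrpl or Mrps followed by a digit. Of the 24781 genes in the table of molecule counts, 78 were chosen in this way, 49 named Mrpl and 29 named Mrps. They were followed in 36 libraries of 100 sorted cells each from MC38 tumours, a colon carcinoma line grown in mice, on day 7 after inoculation. Tumour-associated macrophages (TAMs, sorted as CD45+CD11b+F4/80high) and CD8+ T cells (sorted as CD45+TCRbeta+CD8+) were compared between WT mice, muMt-/- mice and muMt-/- mice implanted with a GABA pellet, with 6 libraries in each of the 6 groups. The muMt-/- mice carry a disrupted Ighm gene and lack mature B cells. They are on the C57BL/6J background, and the study's WT mice were C57BL/6J or C57BL/6N. The sample labels give no treatment for the WT and muMt-/- groups, which the study's methods describe as placebo-treated, and no age for any group. Replicates are labelled as independent library preparations, and the study describes 1 library per mouse.

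Mitochondria carry their own ribosome, which translates the few proteins encoded by mitochondrial DNA, all of them subunits of the oxidative phosphorylation (OXPHOS) complexes. Its RNAs are encoded by mitochondrial DNA, but every one of its proteins is encoded in the nucleus, made in the cytosol and imported. Some of these proteins have a counterpart in the bacterial ribosome and others were added in the mitochondrial lineage. Macrophages and T cells alter their use of oxidative phosphorylation when they are activated, which makes the supply of this ribosome of interest in a tumour.

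By their place in the ribosome, 51 of the 78 genes encode proteins of the large subunit and 26 of the small subunit. The names do not always give the place. Mrps18a and Mrps30, named for the small subunit, encode large subunit proteins, and Mrps36 encodes a component of the 2-oxoglutarate dehydrogenase complex and was counted with neither subunit. Mrps18a, Mrps18b and Mrps18c encode relatives of the bacterial protein S18, and the products of Mrps18b and Mrps18c sit in the small subunit. Mrps18c was counted as the bacterial homologue and the other 2 as mitochondria-specific. Among large subunit genes, 30 have a bacterial homologue and 21 are specific to mitochondria, and for the small subunit these numbers were 16 and 10.

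The TAM libraries held 206394 to 304100 molecules in WT mice, 100254 to 253608 in muMt-/- mice and 151856 to 262606 in GABA-treated muMt-/- mice. The CD8+ T cell libraries were shallower, with 22896 to 76898, 51064 to 77839 and 65356 to 98015 molecules in the same order. Between 73 and 78 of the genes were detected in each TAM library, and between 49 and 77 in each CD8+ T cell library. The family contributed from 88 molecules in 1 CD8+ T cell library of a WT mouse to 1104 in 1 TAM library of a WT mouse. In the shallowest CD8+ T cell library a count of 0 allows up to 1.31 molecules per 10000, by counting error only. Mrpl33 and Mrpl52 were the genes of the family with a mean above that level in CD8+ T cells.

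The sorted populations were checked on marker genes. The summed level of 10 macrophage genes was 97.4 ± 11.4 molecules per 10000 (mean ± SD, n = 6) in TAMs of WT mice, and that of the 7 of 10 T cell genes that were in the table was 0.149 ± 0.131. In CD8+ T cells of WT mice these levels were 2.15 ± 2.56 and 32.8 ± 10.03. In muMt-/- and GABA-treated muMt-/- mice, the macrophage genes averaged 80.0 ± 7.16 and 81.6 ± 15.0 in TAMs, and the T cell genes 26.7 ± 9.45 and 27.4 ± 10.7 in CD8+ T cells. The markers of the sort were thus present in every group. In TAMs, 4 of 6 muMt-/- libraries lay below all WT libraries in the macrophage sum, and 2 of the 10 genes fell and 0 rose in muMt-/- against WT mice by edgeR's test, which called 2.06% of all genes. At an unadjusted p under 0.05, 4 were lower and 3 higher, so the list did not go one way. The part of this difference in the results on the Mrpl and Mrps genes was not tested.

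Some libraries stood apart from the rest of their group over all genes. Chi-square per degree of freedom between libraries was 2.96 to 7.01 for TAM muMt-/- GABA replicate 1, against 1.30 to 2.85 among the other 5. It was 2.40 to 3.02 for TAM muMt-/- replicate 4 (others 1.18 to 2.05) and 2.95 to 4.90 for CD8+ T cell muMt-/- replicate 1 (others 1.496 to 2.90). CD8+ T cell muMt-/- GABA replicate 1 had values of 3.01 to 6.16, which overlapped with those of the others (1.46 to 3.68). Without TAM muMt-/- GABA replicate 1, the median log2 fold change of the Mrpl and Mrps genes in GABA-treated muMt-/- against WT TAMs was -0.04, in place of -0.08. What sets these libraries apart was not tested.

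RNA of other cells was not spread evenly over the CD8+ T cell groups. Macrophage genes summed to 10.7 ± 11.03 molecules per 10000 in CD8+ T cells of muMt-/- mice and to 9.08 ± 8.02 in those of GABA-treated muMt-/- mice, with a highest value of 32.6 in muMt-/- replicate 1. Adgre1 and Mertk, which mark macrophages, were at 0 in all 6 CD8+ T cell libraries of WT mice, whereas the other 8 markers were seen there in 2 to 5 libraries each, with the most molecules for Cd14 (19) and C1qb (11). The 6 B cell genes summed to at most 0.133 molecules per 10000 in any group mean, with Cd79a and Pax5 at 0 in all 36 libraries. The 7 tumour and stroma genes, led by Col3a1, had medians of 3.66, 4.36 and 5.91 molecules per 10000 in TAMs and 1.80, 6.41 and 2.01 in CD8+ T cells, in the order WT, muMt-/- and GABA-treated muMt-/-. The highest value was 52.8, in TAM WT replicate 6. Their part in the results on the Mrpl and Mrps genes was not tested.

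Each molecule was counted once, at the 3′ end of its transcript, so that the count of a gene is not multiplied by the length of its RNA. In TAMs, the levels spanned from a mean normalized number of 26.9 molecules for Mrpl52 to 1.63 for Mrps31. The normalized number is the count divided by a size factor of the library, over the 18 libraries of a cell type. Mrpl52, Mrpl33 (22.8), Mrpl42 (19.3), Mrps14 (17.9), Mrpl18 (17.2), Mrps33 (16.5), Mrpl51 (15.3) and Mrpl30 (14.9) were the 8 highest in TAMs. Mrpl52, Mrpl42, Mrpl51 and Mrps33 encode proteins without a bacterial counterpart. At the other end were Mrps22 (3.29), Mrps27 (2.59) and Mrps31 (1.63), all of the small subunit and mitochondria-specific.

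In CD8+ T cells the highest normalized numbers were those of Mrpl33 (10.6), Mrpl52 (9.45) and Mrpl42 (6.58), followed by Mrpl18 (5.93), Mrpl15 (5.87), Mrps16 (5.62), Mrpl30 (5.203) and Mrps33 (4.98). Mrps30 (1.36), Mrpl37 (1.32) and Mrpl2 (1.25) were the lowest of the 73 genes with a mean above 1. The other 5 genes, Mrps2, Mrpl47, Mrps27, Mrps31 and Mrps22, had means of 0.724 to 0.969 and were not tested in this cell type. Within a group the spread of a single gene was wide, and neighbours in this order overlapped. Normalized numbers of Mrpl52 in CD8+ T cells of WT mice ran from 3.67 through a median of 10.4 to 19.2, and those of Mrpl33 from 4.81 through 10.1 to 15.5.

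Division by transcript length gave another order. Counts of 3′ ends are not multiplied by length, so this division favours genes with short transcripts and corrects nothing. Divided by the length in kilobases of the longest transcript in the GENCODE annotation, which was found for all 78 genes, the 8 highest genes in TAMs were Mrpl52, Mrps21, Mrpl14, Mrpl54, Mrps18c, Mrps33, Mrpl18 and Mrpl27, of which 3 were among the 8 highest before. In CD8+ T cells, Mrpl52, Mrps21, Mrpl20, Mrpl36, Mrpl54, Mrps36, Mrpl18 and Mrps24 led per kilobase, with 2 shared. Mrpl52 was highest per kilobase in both cell types, with 31.4 normalized molecules per kilobase in TAMs and 11.04 in CD8+ T cells. Next came Mrps21, with 26.4 and 9.43. Its longest transcript has 488 bases, and by normalized number it ranked 11 in TAMs and 13 in CD8+ T cells. The longest transcript need not be the one expressed.

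**Figure D1:**
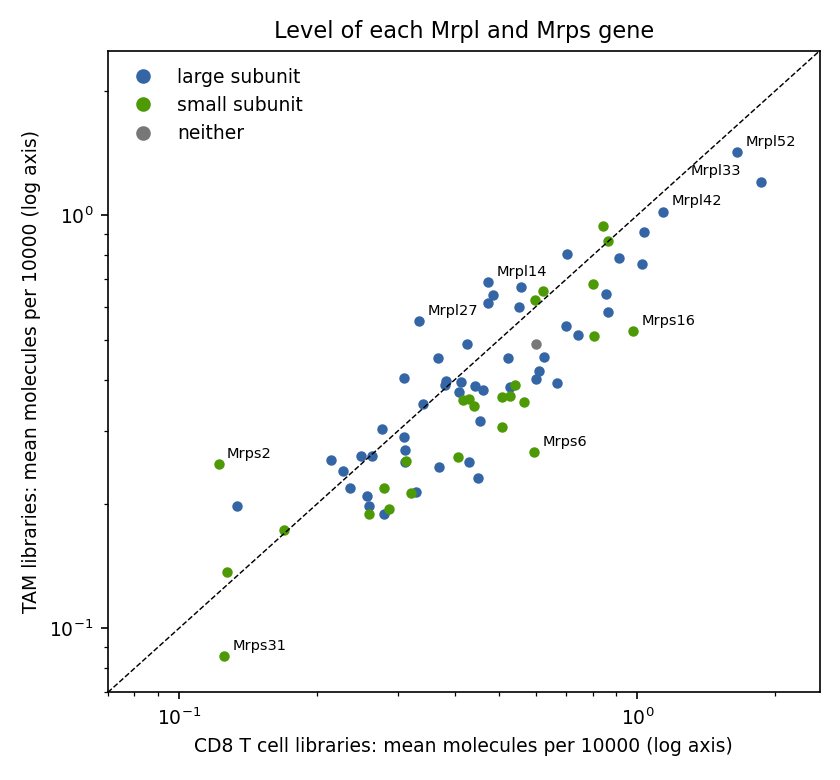
Mean level of each of the 78 Mrpl and Mrps genes in the 18 TAM libraries (vertical axis) against the 18 CD8+ T cell libraries (horizontal axis), in molecules per 10000 on log axes. Each point is a gene, coloured by the subunit of its protein, and the dashed line marks equal levels; Mrpl52 and Mrpl33 lead in both cell types, and Mrps31 is the lowest in TAMs.

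Summed over the 78 genes, the family had close to the same level in both cell types of WT mice. It made up 38.1 ± 3.35 molecules per 10000 in TAMs and 37.7 ± 3.41 in CD8+ T cells (mean ± SD, n = 6 each). This log2 ratio of 0.02 became 0.38 with effective library sizes in place of totals, because those sizes differ between the cell types. In bulk samples, fewer cells of a type and less RNA per cell cannot be told apart, and all levels are shares of the RNA of the 100 cells.

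In TAMs the summed level was lower in muMt-/- mice. It lay between 32.8 and 42.7 molecules per 10000 in WT mice (median 38.5), between 24.7 and 33.4 in muMt-/- mice (median 28.9) and between 33.1 and 38.3 in GABA-treated muMt-/- mice (median 35.4). Of the 6 muMt-/- libraries, 5 lay below every WT library, and 5 of the 6 GABA libraries lay above every muMt-/- library, while all GABA libraries lay within the range of WT. The mean of 29.0 ± 2.90 in muMt-/- mice was 0.762 times that of WT mice, and that of 35.6 ± 1.72 with GABA was 1.23 times that of muMt-/- mice. These are differences of -0.39 and 0.30 on the log2 scale, and they were in the same direction with DESeq2 size factors and with effective library sizes. No test was made on the sum, and both comparisons share the muMt-/- libraries.

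Both subunits followed the sum in TAMs. Large subunit genes summed to 26.5 ± 2.09 molecules per 10000 in WT, 20.6 ± 1.99 in muMt-/- and 24.6 ± 1.10 in GABA-treated muMt-/- mice. For small subunit genes these values were 11.1 ± 1.38, 8.03 ± 1.02 and 10.5 ± 0.782. Without Mrpl33 and Mrpl52, left out after their values were seen, the family's mean in muMt-/- mice was 0.767 times that in WT mice.

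Other sums also differed between these groups of TAMs. Nuclear OXPHOS subunits summed to 149 ± 8.46, 113 ± 11.96 and 139 ± 20.5 molecules per 10000 in WT, muMt-/- and GABA-treated muMt-/- mice, and cytosolic ribosomal proteins to 1058 ± 69.5, 777 ± 96.1 and 983 ± 75.8. The nuclear RNAs Malat1 and Neat1 went the other way, from 35.96 ± 2.52 in WT mice to 62.6 ± 20.9 in muMt-/- mice and 40.3 ± 6.67 with GABA. All 6 muMt-/- libraries lay above all WT libraries in these RNAs. The highest of them, replicate 4 with 103.9, also had the lowest summed level of Mrpl and Mrps genes, 24.7. Without that library the family's log2 difference between muMt-/- and WT mice was -0.35. The part of nuclear RNA in the family's level was not tested.

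In CD8+ T cells the order of the groups was another. The summed level lay between 34.4 and 43.4 molecules per 10000 in WT mice (median 37.3), between 32.6 and 42.0 in muMt-/- mice (median 38.8) and between 39.0 and 49.1 with GABA (median 46.6). WT and muMt-/- libraries overlapped, whereas 4 of the 6 GABA libraries lay above every library of either other group. The means were 37.7 ± 3.41, 38.3 ± 3.38 and 44.8 ± 4.22. The log2 difference between muMt-/- and WT mice was 0.02, and it was 0.04 with DESeq2 size factors and 0.16 with effective library sizes, while the median of the single genes' log2 ratios was -0.06. GABA-treated muMt-/- mice differed from other muMt-/- mice by 0.23 and from WT mice by 0.25. Both values were positive under both other scalings, and that against WT mice was 0.40 with effective library sizes.

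Large subunit genes in CD8+ T cells summed to 25.2 ± 3.51, 25.8 ± 2.88 and 30.7 ± 2.66 molecules per 10000 in WT, muMt-/- and GABA-treated muMt-/- mice, and small subunit genes to 11.9 ± 0.710, 12.01 ± 1.41 and 13.5 ± 1.99. Nuclear OXPHOS subunits were at 142 ± 18.3, 153 ± 22.6 and 165 ± 26.3. Cytosolic ribosomal proteins did not share this order, with 1830 ± 129, 1571 ± 163 and 1765 ± 316. Malat1 and Neat1 summed to 40.6 ± 6.66, 34.3 ± 11.9 and 29.3 ± 5.97.

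**Figure D2:**
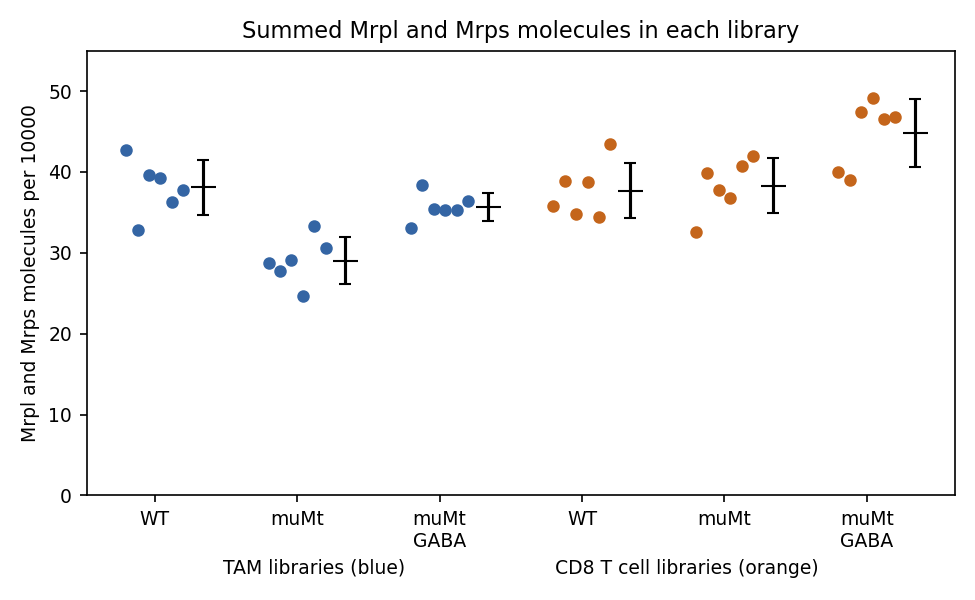
Summed molecules of the 78 Mrpl and Mrps genes per 10000 molecules of the library, for the 6 libraries of each group, TAMs in blue and CD8+ T cells in orange. Points are libraries, and the bar beside them is the mean ± SD (n = 6); in TAMs, 5 of 6 muMt-/- libraries lie below all WT libraries, and in CD8+ T cells, 4 of 6 GABA libraries lie above all others.

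Loss of B cells was first examined gene by gene in TAMs, in muMt-/- against WT mice, with edgeR's quasi-likelihood F-test on all 9469 genes with a mean normalized number above 1. All 78 Mrpl and Mrps genes were among them. None had a Benjamini-Hochberg adjusted p under 0.05 (smallest 0.0876), where 195 of all genes tested did (2.06%). Unadjusted, 13 of the 78 were lower with p under 0.05 and 0 were higher, against 8.18% of all genes lower and 6.66% higher. DESeq2 called 0 with an adjusted p, with 25 of the 78 not given one by its independent filtering, and 9 lower at an unadjusted p under 0.05. The shares of all genes given here and below are from edgeR's test, so DESeq2's counts have no share beside them.

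The fitted values leaned to one side across the family. In muMt-/- TAMs, 64 of 78 genes had a negative log2 fold change (82.1%), where 53.8% of all genes did. The median of the family was -0.31, beside -0.05 over all genes tested, and it was -0.29 with DESeq2 size factors and -0.35 with library totals alone. With library depth, on the log2 scale, in the fit it was -0.19. Large subunit genes had a median of -0.28 (41 of 51 negative) and small subunit genes of -0.36 (22 of 26 negative). By origin, the medians were -0.30 for large subunit genes with a bacterial homologue and -0.12 for those specific to mitochondria, and -0.33 and -0.45 in the small subunit. No group of these held a gene that passed the test.

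The genes nearest to the threshold belonged to both subunits. Normalized numbers of Mrps18c, a relative of bacterial protein S18 in the small subunit, were 10.2 to 21.3 in TAMs of WT mice (median 14.6), 5.53 to 11.2 in muMt-/- mice (median 8.89) and 12.3 to 15.9 with GABA (median 13.0). The muMt-/- libraries were low, overlapped with WT at its lower end, and lay entirely below the GABA libraries. The log2 fold change of Mrps18c between muMt-/- and WT mice was -0.75 (SE 0.24, edgeR adjusted p = 0.0876). Mrpl12 encodes the stalk protein at which translation factors dock, and its normalized numbers were 7.38 to 14.4 in WT mice (median 10.7), 2.77 to 9.42 in muMt-/- mice (median 6.31) and 6.41 to 10.6 with GABA (median 9.56). The groups overlapped, and the log2 fold change of Mrpl12 between muMt-/- and WT mice was -0.88 (SE 0.28, edgeR adjusted p = 0.0905).

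Mrpl30 and Mrps26 are among the genes that the study lists for these TAM libraries. That choice was made on the same samples, so their values are no independent evidence of a direction. Mrpl30, a large subunit protein with a bacterial homologue, had 11.6 to 23.0 normalized molecules in WT mice (median 18.6), 3.77 to 20.2 in muMt-/- mice (median 7.86) and 6.64 to 22.4 with GABA (median 17.7). Its muMt-/- libraries spanned most of the WT range, and the log2 fold change was -0.81 (SE 0.29, edgeR adjusted p = 0.140). Mrps26, a mitochondria-specific protein of the small subunit, had 3.77 to 16.0 normalized molecules in WT mice (median 6.78), 1.88 to 5.53 in muMt-/- mice (median 3.90) and 5.31 to 11.6 with GABA (median 7.63). Its muMt-/- libraries overlapped with the lower values of both other groups, and the log2 fold change between muMt-/- and WT mice was -1.003 (SE 0.39, edgeR adjusted p = 0.182).

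Among the other genes with an unadjusted p under 0.05 were some of the most abundant. Mrpl33 had 21.2 to 32.0 normalized molecules in TAMs of WT mice (median 27.1) and 16.7 to 21.9 in muMt-/- mice (median 19.0), so that the groups barely overlapped. Its log2 fold change was -0.51 (SE 0.21, edgeR adjusted p = 0.220). Mrpl20 had 9.23 to 21.1 in WT mice (median 14.4) and 5.65 to 10.1 in muMt-/- mice (median 9.36), and Mrpl51 13.8 to 23.3 (median 16.8) and 8.30 to 21.2 (median 10.2). Their log2 fold changes were -0.68 and -0.59. Mrpl58, which encodes a peptidyl-tRNA hydrolase that also sits in the large subunit, had a log2 fold change of -0.83 (SE 0.34, edgeR adjusted p = 0.232).

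Mrpl52, with the highest count of the family, had 26.1 to 39.3 normalized molecules in TAMs of WT mice (median 31.2) and 16.7 to 31.1 in muMt-/- mice (median 24.8). The groups overlapped, and its log2 fold change of -0.38 (SE 0.20, edgeR adjusted p = 0.371) did not have an unadjusted p under 0.05.

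Positive values were found for 14 of the 78 genes in this comparison. Mrps18a, the relative of S18 in the large subunit, had the largest among genes with a mean of at least 5, a log2 fold change of 0.48 (SE 0.34, edgeR adjusted p = 0.565). It was followed by Mrpl13 (0.12), Mrpl40 (0.09), Mrpl54 (0.05) and Mrpl36 (0.05), of which Mrpl13 turned negative when library depth entered the fit and the other 3 when certain single libraries were left out. The 3 relatives of bacterial S18 thus had values of 0.48, -0.73 (Mrps18b) and -0.75 (Mrps18c), which were not tested against each other. Mrps30, the other large subunit gene with a small subunit name, was at 0.41 (SE 0.38), and Mrps36 at -0.39 (SE 0.35).

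**Figure D3:**
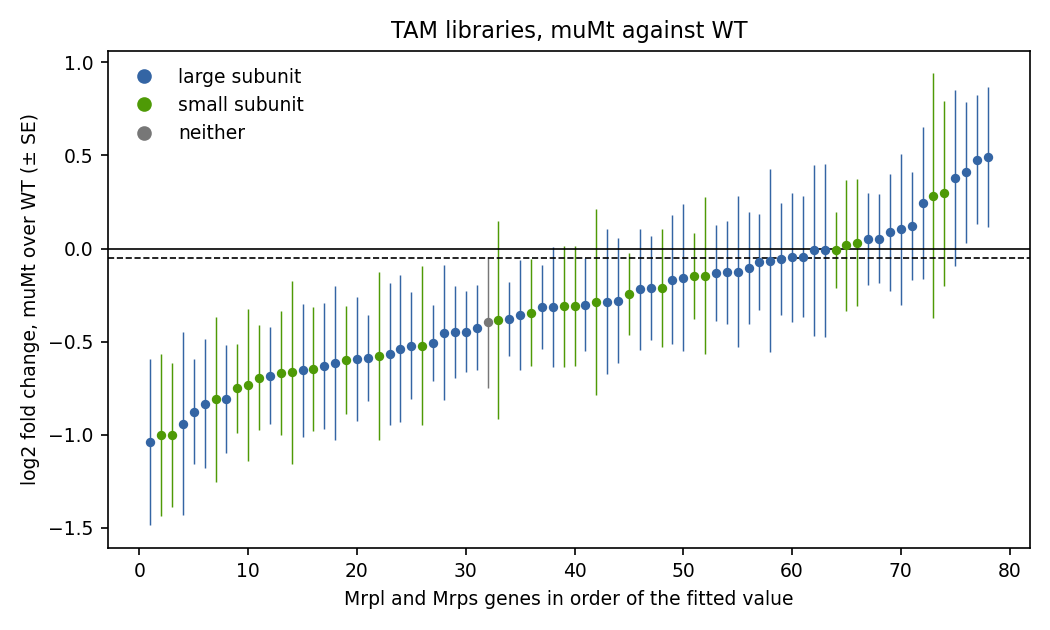
Log2 fold change of each of the 78 Mrpl and Mrps genes in TAMs of muMt-/- against WT mice, in order of its size, with its SE as a vertical line and the colour giving the subunit. The solid line is at 0 and the dashed line at -0.05, the median of all 9469 genes tested; 64 of the 78 genes lie below 0, and the family's median was negative under each of the 3 scalings.

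Whether GABA reaches these genes in the absence of B cells was asked in GABA-treated against other muMt-/- mice. In TAMs, 0 of the 78 genes had an edgeR adjusted p under 0.05 (smallest 0.390), where 2 of all genes tested did (0.0211%). Unadjusted, 7 were higher with p under 0.05 and 0 lower, against 4.93% of all genes higher and 3.41% lower. At an unadjusted p, DESeq2 gave 4 higher and 0 lower, again without a share of all genes beside them. It set no adjusted p for any of the 78. The fitted value was positive for 61 of 78 genes (78.2%), where 55.3% of all genes had a positive one. The median was 0.22, beside 0.05 for all genes tested, and it stayed positive with DESeq2 size factors (0.20) and with library totals alone (0.25). For small subunit genes the median was 0.33 with 24 of 26 positive, including all 16 that have a bacterial homologue, and for large subunit genes 0.18 with 36 of 51 positive. Without TAM muMt-/- replicate 5 the median over the family was 0.34.

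The 7 genes were Mrps26, Mrpl30, Mrps35, Mrpl21, Mrps18c, Mrpl34 and Mrpl47. Mrps26 had a log2 fold change of 1.05 (SE 0.39, edgeR adjusted p = 0.390) and Mrpl30 of 0.75 (SE 0.30, edgeR adjusted p = 0.439). Since Mrps26, Mrpl30 and Mrps18c had low values in the shared muMt-/- libraries, a value in the opposite direction to that in muMt-/- against WT mice follows in part from those libraries. Mrps35 had 0 to 4.70 normalized molecules in muMt-/- mice (median 2.32) and 3.66 to 10.6 with GABA (median 5.02), where WT mice had 2.91 to 6.31 (median 4.44). Mrpl34 had 1.88 to 9.40 in muMt-/- mice (median 5.04) and 7.97 to 13.7 with GABA (median 9.62), and all GABA libraries lay above the WT median of 6.14. Mrps6, of the small subunit, was at 0.88 (SE 0.49, edgeR adjusted p = 0.650), with an unadjusted p above 0.05. The value of Mrps6 ran from 0.68 to 1.58 with a library left out. The largest negative values among genes with a mean of at least 5 were Mrpl16 with -0.33 (SE 0.38) and Mrpl54 with -0.21 (SE 0.25). With a library left out, Mrpl16 ran from -0.52 to -0.08 and Mrpl54 from -0.30 to -0.08.

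GABA-treated muMt-/- mice were also set against WT mice. Here, too, 0 of the 78 genes had an edgeR adjusted p under 0.05 in TAMs (smallest 0.597), with 7 of all genes tested (0.0739%). The unadjusted p was under 0.05 for 2 that were higher and 2 that were lower, against 3.59% and 3.42% of all genes, which is near the background. DESeq2 gave 1 higher and 0 lower at an unadjusted p and 0 with an adjusted p, which it set for 2 of the 78. Positive values were found for 32 genes and negative ones for 46, with a median of -0.08 beside 0.01 over all genes, and of -0.0013 when library depth entered the fit. The 3 comparisons share their groups, and the family's medians were -0.31, 0.22 and -0.08 for muMt-/- against WT, GABA-treated against other muMt-/-, and GABA-treated muMt-/- against WT.

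Single genes in that last comparison went both ways. Mrps23, a mitochondria-specific protein of the small subunit, had 7.38 to 12.6 normalized molecules in WT mice (median 9.78), 3.77 to 8.37 in muMt-/- mice (median 5.71) and 4.16 to 9.29 with GABA (median 6.58). Its GABA libraries thus lay with the muMt-/- libraries, and the log2 fold change against WT was -0.63 (SE 0.26, edgeR adjusted p = 0.597). Mrpl34 was at 0.69 (SE 0.29, edgeR adjusted p = 0.635) and Mrpl20 at -0.49 (SE 0.24, edgeR adjusted p = 0.708). Mrps5 was at 0.43 (SE 0.30) and Mrps12, which encodes a protein of the decoding centre, at -0.63 (SE 0.31). Mrpl46, a gene of low level, had 0.726 to 6.46 normalized molecules in WT mice (median 2.52) and 4.03 to 6.65 with GABA (median 5.86), with 1 muMt-/- library at 0.

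In CD8+ T cells, 6663 genes were tested and 73 of the 78 Mrpl and Mrps genes were among them. Between muMt-/- and WT mice, 0 of them had an edgeR adjusted p under 0.05 (smallest 0.728), as was so for all genes tested (0%). At an unadjusted p under 0.05, 4 were higher and 0 lower, against 5.24% of all genes higher and 0.84% lower, which is close to the background. DESeq2 gave 0 with either p. The median of the family was 0.06 beside 0.15 over all genes, and 43 of the 73 genes lay below the latter. The family's median turned to -0.02 with DESeq2 size factors and to -0.03 with library totals alone. Positive values were found for 39 genes (53.4%) and negative ones for 34, where 61.7% of all genes were positive. Library totals alone moved the median of all genes by -0.10 on the log2 scale here.

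The 4 genes had low counts. Mrpl38 had 0 to 3.43 normalized molecules in CD8+ T cells of WT mice (median 0.376, 3 libraries at 0) and 1.64 to 7.08 in muMt-/- mice (median 2.65), where the highest was replicate 1. Mrpl45, which encodes a protein that ties the ribosome to the inner membrane, had 0 to 2.06 in WT mice (median 0.947, 2 libraries at 0), 1.01 to 4.09 in muMt-/- mice (median 3.19) and 1.58 to 5.08 with GABA (median 3.85). The groups overlapped for both genes. Mrpl3 and Mrpl41 were the other 2, with log2 fold changes of 1.36 (SE 0.64) and 1.29 (SE 0.63). The abundant genes had small values, 0.14 (SE 0.31) for Mrpl33 and -0.41 (SE 0.32) for Mrpl52, within the spread between libraries. With a library left out, Mrpl33 ran from 0.03 to 0.36 and Mrpl52 from -0.60 to -0.24.

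With GABA, 56 of the 73 genes had a positive log2 fold change against other muMt-/- mice in CD8+ T cells (76.7%), where 50.5% of all genes did. The median was 0.23 beside 0.00 over all genes, and it was 0.21 both with DESeq2 size factors and with library totals alone. It was 0.14 when library depth entered the fit. By edgeR, 0 of the 73 had an adjusted p under 0.05 (smallest 0.9997), and so had 0% of all genes. At an unadjusted p under 0.05 there was 1 higher and 0 lower, against 1.68% of all genes higher and 2.01% lower, and DESeq2 gave 0 with either p. The 1 gene was Mrpl34, which had 0 to 3.03 normalized molecules in muMt-/- mice (median 1.65) and 1.86 to 5.72 with GABA (median 3.92), and in WT mice 0 to 6.63 (median 2.06). The GABA libraries thus lay within the wide WT range, and the log2 fold change against muMt-/- mice was 1.15 (SE 0.51, edgeR adjusted p = 0.9997).

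Among the abundant genes in CD8+ T cells, Mrpl18 and Mrpl15 had the largest values with GABA against other muMt-/- mice, 0.67 (SE 0.34) and 0.46 (SE 0.39). Mrpl15 ran from 2.02 to 7.43 normalized molecules in muMt-/- mice (median 5.72) and from 3.15 to 11.4 with GABA (median 7.24), with much overlap. By subunit, 39 of 50 large subunit genes and 16 of 22 small subunit genes had positive values, with medians of 0.25 and 0.17.

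Set against WT mice, GABA-treated muMt-/- mice gave 58 positive values of 73 in CD8+ T cells (79.5%), where 62.9% of all genes were positive. The family's median was 0.37 beside 0.17 over all genes. DESeq2 size factors moved the median of all genes by -0.11 and library totals alone by -0.12, and the family's median was then 0.28 and 0.27. It was 0.16 among genes with a mean above 5, and 0.14 when the depth of each library, on the log2 scale, entered the fit. By edgeR 0 of the 73 had an adjusted p under 0.05 (smallest 0.573), with 0% of all genes, and at an unadjusted p 1 was higher and 0 lower, against 5.31% of all genes higher and 1.1% lower. DESeq2 gave 1 higher at an unadjusted p and 0 with an adjusted p. The gene in edgeR was Mrpl45, with a log2 fold change of 1.71 (SE 0.58, edgeR adjusted p = 0.573). The precision in CD8+ T cells was lower than in TAMs, with a median SE per gene of 0.55 in this comparison and 0.30 in the same comparison of TAMs.

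The cell types themselves were compared in WT mice, in a fit to all 36 libraries with 8477 genes tested. TAMs had 5 of the 78 Mrpl and Mrps genes higher than CD8+ T cells and 0 lower at an edgeR adjusted p under 0.05, where 16.7% of all genes were higher and 6% lower. DESeq2 called 0 with an adjusted p. The family's median was 0.28 beside 0.35 over all genes, it was 0.12 with DESeq2 size factors, and it turned to -0.04 with library totals alone. The median of all genes moved by -0.16 and -0.32 under these scalings, and the family's median minus that of all genes was -0.08, -0.07 and -0.07. Of the genes called, 1414 of 1923 were higher in TAMs, 1176 of 1808 with DESeq2 size factors and 968 of 1730 with library totals alone.

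The 5 genes were Mrpl14, Mrpl45, Mrpl43, Mrps18c and Mrpl3, and 4 of them encode large subunit proteins. In molecules per 10000, Mrpl14 ran from 0.493 to 0.979 in TAMs of WT mice (median 0.854) and from 0 to 0.580 in CD8+ T cells (median 0.382, 1 library at 0). The groups overlapped only at the border, and Mrpl14 was higher in TAMs by a log2 fold change of 1.35 (SE 0.42, edgeR adjusted p = 0.0128). Mrpl45 ran from 0.237 to 0.630 in TAMs (median 0.556) and from 0 to 0.373 in CD8+ T cells (median 0.162, 2 libraries at 0), with a log2 fold change of 1.73 (SE 0.54, edgeR adjusted p = 0.0143). Mrpl43 ran from 0.388 to 1.03 in TAMs (median 0.682) and from 0 to 0.926 in CD8+ T cells (median 0.251, 2 libraries at 0), with a log2 fold change of 1.46 (SE 0.48, edgeR adjusted p = 0.0187). For Mrpl43 and Mrps18c the groups overlapped widely. Mrps18c was at 1.09 (SE 0.40, edgeR adjusted p = 0.0375) and Mrpl3 at 1.42 (SE 0.54, edgeR adjusted p = 0.0499). Over all 18 libraries of each cell type, mean levels in TAMs and CD8+ T cells were 0.487 and 0.424 for Mrpl45 and 0.397 and 0.382 for Mrpl3. They were 0.655 and 0.623 for Mrps18c, 0.690 and 0.473 for Mrpl14, and 0.613 and 0.473 for Mrpl43. The low CD8+ T cell WT values of Mrpl45 and Mrpl3 also enter their higher values in muMt-/- against WT CD8+ T cells.

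The number of calls rested on single libraries. It was 3 without each of CD8+ T cell WT replicates 1 and 2 and TAM WT replicates 1, 2 and 5, and 4 or 5 without each of the others. These fits also called other genes, Mrpl54 without CD8+ T cell WT replicate 4, Mrpl38 and Mrps14 without replicate 5 and Mrpl27 and Mrpl35 without replicate 6 of that group. Mrpl14 and Mrpl45 were called in all 12 of these fits, Mrpl43 in 8, Mrps18c in 5 and Mrpl3 in 2. Mrpl43 was lost without CD8+ T cell WT replicates 2, 5 or 6 or TAM WT replicate 6, with an edgeR adjusted p of up to 0.0899. Mrps18c was lost without CD8+ T cell WT replicates 1, 4, 5 or 6 or TAM WT replicates 1, 2 or 5 (up to 0.161), and Mrpl3 without any library other than CD8+ T cell WT replicate 5 and TAM WT replicate 6 (up to 0.239). The number of calls was also 3 with DESeq2 size factors in edgeR, with blocks by replicate number and with 12 libraries alone. Mrpl3 and Mrps18c were lost in each of these fits, with log2 fold changes from 0.93 to 1.41. Their edgeR adjusted p-values were 0.0983 and 0.0969, 0.0714 and 0.0524, and 0.0695 and 0.0555 in that order. There was 1 call among genes with a mean above 5 and 0 with library totals alone. The largest negative value among genes with a mean of at least 5 was that of Mrps16, a small subunit protein with a bacterial homologue, at -0.39 (SE 0.36, edgeR adjusted p = 0.499).

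The difference between the cell types in the response to B cell loss was tested as an interaction in the same fit. By edgeR 0 of the 78 genes had an adjusted p under 0.05 (smallest 0.331), with 1 of all genes tested (0.0118%). At an unadjusted p there were 7, all lower in the TAM response, against 10% of all genes in both directions together. Values were negative for 73.1% of the 78 genes and for 65.9% of all genes, so the direction was largely that of all genes. DESeq2 gave 0 with an adjusted p, which it did not set for 66 of the 78, and 3 at an unadjusted p. The family's median was -0.46 beside -0.29 over all genes. It was -0.27 with DESeq2 size factors, which moved the median of all genes by 0.19, and -0.37 with library totals alone. The family's median minus that of all genes was -0.16 under each scaling. Mrpl38 had the smallest p, with a value of -2.05 (SE 0.73), and it is a gene of few molecules in CD8+ T cells. For the response to GABA, 0 genes had an adjusted p under 0.05 (0% of all genes), and 3 had an unadjusted one, 2 higher and 1 lower, against 4.52% of all genes, with the same 0 and 3 by DESeq2. No single gene was thus shown to differ between the cell types in either response.

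The rest of the mitochondrial translation pathway was described from lists of genes. In TAMs of muMt-/- against WT mice, 0 of 5 ribosome subunits under other names, 0 of 19 assembly and rRNA modification factors, 0 of 13 translation factors and activators and 0 of 8 transcription and RNA processing genes had an edgeR adjusted p under 0.05, and none of these had an unadjusted one. Of 14 mitochondrial aminoacyl-tRNA synthetase genes, which charge the tRNAs of this ribosome, 1 rose, Lars2. Lars2 had 33.9 to 59.1 normalized molecules in WT mice (median 41.4), 61.1 to 84.6 in muMt-/- mice (median 71.2) and 28.4 to 64.0 with GABA (median 38.5). All muMt-/- libraries lay above all WT libraries, and the log2 fold change was 0.71 (SE 0.18, edgeR adjusted p = 0.0318). The call of Lars2 was lost when library depth entered the fit (edgeR adjusted p = 0.464). It held in 4 of the 12 fits that left out a library, and was lost without each of TAM muMt-/- replicates 1, 2, 4 and 6 and TAM WT replicates 1, 3, 5 and 6, with edgeR adjusted p-values from 0.0515 to 0.0883 and log2 fold changes from 0.65 to 0.72. With depth in the fit the log2 fold change was 0.52.

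Other genes of the pathway that were named for reference did not pass the test in that comparison. Dap3, a subunit of the small subunit under its own name, had a log2 fold change of -0.50 (SE 0.30), the elongation factor Tufm of -0.39 (SE 0.28), the mRNA-binding protein Lrpprc of -0.76 (SE 0.41) and the transcription factor Tfam of 0.13 (SE 0.36). The medians of the lists were -0.01 for subunits under other names, 0.02 for assembly factors, -0.03 for translation factors, -0.30 for the synthetases and -0.29 for transcription and RNA processing. Of the 14 synthetases tested, 9 had negative values. The summed level of the synthetase list, which includes Lars2, went the other way. It was 4.31 ± 0.544 molecules per 10000 in WT, 5.27 ± 0.337 in muMt-/- and 4.22 ± 0.757 in GABA-treated muMt-/- mice. The family's median of -0.31 was beside -0.34 for nuclear OXPHOS subunits and -0.47 for cytosolic ribosomal proteins. Of these 2 lists, 9 of 74 OXPHOS genes and 27 of 77 cytosolic ribosomal protein genes fell, and 0 rose, where the test called 2.06% of all genes. Among the OXPHOS genes was Cox5b of complex IV with -1.08 (SE 0.21, edgeR adjusted p = 0.00352).

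In GABA-treated against other muMt-/- mice, none of the genes of these 7 lists had an edgeR adjusted p under 0.05 in TAMs or in CD8+ T cells. In TAMs 15 of 74 OXPHOS genes and 46 of 77 cytosolic ribosomal protein genes were higher at an unadjusted p under 0.05, as were 4.93% of all genes, with medians of 0.26 and 0.33 beside 0.22 for the Mrpl and Mrps genes. In CD8+ T cells 3 and 15 were higher, against 1.68% of all genes, with medians of 0.13 and 0.17 beside 0.23. There were likewise 0 calls by edgeR in GABA-treated muMt-/- against WT mice for either cell type and in muMt-/- against WT CD8+ T cells.

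Between TAMs and CD8+ T cells of WT mice, Slirp, Gatc and Yars2 of the 5 lists on mitochondrial translation were called higher in TAMs and none lower, where 16.7% of all genes were higher and 6% lower. Slirp, the partner of Lrpprc in binding mitochondrial mRNA, had 22.1 to 29.1 normalized molecules in TAMs, which were scaled separately from CD8+ T cells (0 to 9.76), and a log2 fold change of 1.13 (SE 0.37, edgeR adjusted p = 0.0187). Gatc, a subunit of the glutamyl-tRNA amidotransferase, was at 0 in 5 of 6 CD8+ T cell libraries (edgeR adjusted p = 0.0298), and Yars2, the tyrosyl-tRNA synthetase, in all 6 (edgeR adjusted p = 0.0299). Gatc and Yars2 passed the filter on low counts through other groups than these CD8+ T cells, so their calls are given as a description only, without a fold. With library totals alone, none of the 3 had an edgeR adjusted p under 0.05, nor had Gatc and Yars2 by DESeq2, Gatc without a filter or Slirp among genes with a mean above 5. Slirp was lost without CD8+ T cell WT replicates 1, 2 or 4 (edgeR adjusted p of up to 0.0650), Gatc without replicates 1, 3, 4, 5 or 6 of that group (up to 0.0992), and Yars2 without its replicates 4, 5 or 6 or TAM WT replicate 6 (up to 0.0676). OXPHOS subunits had 10 genes higher in TAMs and 1 lower, and cytosolic ribosomal proteins 0 higher and 31 lower, beside the same 16.7% and 6% of all genes. Ndufc1, of complex I, led with 1.71 (SE 0.36, edgeR adjusted p = 0.000179), and Ndufa4 was the one that was lower (-0.95, SE 0.34, edgeR adjusted p = 0.0326).

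The genes are scattered over the genome, with the 78 on 17 chromosomes and at most 11 on one, chromosome 11. Promoters, taken as the 250 bases before the annotated start in RefSeq (GRCm38.p6), were matched by symbol for 69 of the 78 genes. Entries were missing for Mrps35, Mrpl15, Mrpl38, Mrpl13, Mrpl19, Mrpl54, Mrps28, Mrps34 and Mrpl4. The core letters of motifs known from genes of mitochondrial function were searched on both strands. The ETS core CCGGAAG, which the factor GABP can bind and which is written in reverse complement as CTTCCGG, was in 18 of the 69 genes (26.1%) and in 7.83% of all 27025 genes in the promoter table. The NRF1 core GCATGCGC (GCGCATGC) was in 8 (11.6%, 2.56% of all), and the YY1 core AAGATGGC (GCCATCTT) in 4 (5.80%, 1.83% of all). The ETS or the NRF1 core was in 24 (34.8%, 9.99% of all 27025). The NRF1 letters of both strands can overlap each other. A match describes letters only, and binding was not measured.

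Of the 8 genes with the smallest unadjusted p in muMt-/- against WT TAMs, 4 had a match in the last 200 bases before the start. They are shown 5′ to 3′ on the strand of the gene, here the plus strand in each case, with the matched letters in capitals, the ETS core for Mrps18c, Mrps26 and Mrpl51 and the NRF1 core for Mrpl33. The stretches lie at chr5:100798559-100798758 for Mrps18c, chr2:130563557-130563756 for Mrps26, chr6:125192000-125192199 for Mrpl51 and chr5:31613751-31613950 for Mrpl33, in GRCm38.p6.
Mrps18c: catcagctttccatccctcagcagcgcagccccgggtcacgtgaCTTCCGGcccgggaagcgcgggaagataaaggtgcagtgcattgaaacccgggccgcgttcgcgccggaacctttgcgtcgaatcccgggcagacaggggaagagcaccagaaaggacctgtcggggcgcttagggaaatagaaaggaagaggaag
Mrps26: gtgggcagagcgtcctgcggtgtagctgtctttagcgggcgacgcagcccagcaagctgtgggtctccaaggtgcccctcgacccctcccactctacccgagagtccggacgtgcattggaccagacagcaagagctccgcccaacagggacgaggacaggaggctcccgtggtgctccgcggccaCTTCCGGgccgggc
Mrpl51: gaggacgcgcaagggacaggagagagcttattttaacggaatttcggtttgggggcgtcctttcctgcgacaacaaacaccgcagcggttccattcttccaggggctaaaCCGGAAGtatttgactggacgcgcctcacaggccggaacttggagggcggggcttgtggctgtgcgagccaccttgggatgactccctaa
Mrpl33: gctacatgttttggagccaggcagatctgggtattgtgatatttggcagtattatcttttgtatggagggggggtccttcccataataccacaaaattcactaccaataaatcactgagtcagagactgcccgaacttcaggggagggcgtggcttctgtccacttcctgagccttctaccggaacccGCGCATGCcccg
Mrpl12, Mrpl30, Mrpl20 and Mrps23, the other 4 of the 8, held none of the 3 cores in that stretch. Further down the order of p, some genes also had a match, such as Mrpl58 and Mrpl52, and others had none. No share over the other genes was taken for this stretch, so the 4 of 8 are a description only.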

How the data were processed

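The authors mapped barcoded 3′ reads with STAR to mm10 and deposited counts of distinct molecules per gene and library, without normalization. Every column of values was matched to a sample label. Normalized numbers are counts divided by DESeq2 size factors over the 18 libraries of a cell type, and shares are counts per 10000 molecules of the library. edgeR's test was run on the genes whose normalized number averaged more than 1, with version 4.0.16 (quasi-likelihood F-test, TMM, total molecules as library size, 1 coefficient per group) and Benjamini-Hochberg adjustment over all genes tested, with a threshold of 0.05. The fit used 18 libraries per cell type, and 36 for WT TAMs against WT CD8+ T cells and for interactions. The SE is the absolute log2 fold change divided by the square root of F. DESeq2 1.42.0 was run in R 4.3.3, and figures were drawn with matplotlib 3.10.9 in Python 3.11.15.

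The genes and lists were chosen with earlier results of these data known. The lists were macrophage, T cell, B cell, and tumour and stroma markers, nuclear RNA, 5 lists of the mitochondrial translation pathway, nuclear OXPHOS subunits and cytosolic ribosomal proteins. Trac, Trbc1 and Trbc2 were not among the genes of the table, and Ict1 stands in it as Mrpl58. Ighm, the gene disrupted in muMt-/- mice, was not analysed here. Genes were named by a rule: all with an adjusted p under 0.05, the 5 largest positive and negative log2 fold changes per comparison among genes with a mean of at least 5, the 8 highest and 3 lowest per cell type, the 2 listed by the study, Mrps30, Mrps36 and the 3 Mrps18 genes for their place in the ribosome, and Tufm, Lrpprc, Dap3 and Tfam. Mrps35, Mrpl46, Mrpl47, Mrpl38, Mrpl41, Mrps2, Mrps21, Mrps24, Mrpl27 and Mrpl35, where they fall outside that rule, were named after their values were seen, and the promoter motifs were likewise chosen after the test results.

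Labels call the replicates independent library preparations, and p-values measure the spread between them. No pair of libraries of a group agreed within counting noise (smallest chi-square per degree of freedom 1.18). Alternatives tried were DESeq2 size factors, total molecules alone, no filter, a mean above 5, DESeq2's Wald test, a fit of 12 libraries alone, blocks by replicate number, library depth on the log2 scale as a covariate, and each library left out in turn. Library sizes from the genes tested alone were added as an alternative once results had been seen. edgeR's test was also run on simulated counts, for muMt-/- against WT mice in each cell type. The other comparisons and steps were not simulated. Spike-in RNA and libraries of other treatments were not analysed here.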

Additional observations from a re-analysis of the deposited data

Results flagged for a closer look

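Single libraries that stood apart from the other 5 of their group were sought among 87 groups of values, those of the summed family, of both subunits and of 17 Mrpl and Mrps genes in 1 or both cell types. There were 4, and chance gives about 1 in 20 groups. Mrps35 had 10.6 normalized molecules in TAM muMt-/- GABA replicate 1, where the others had 3.66 to 6.10. Mrpl20 had 5.65 in TAM muMt-/- replicate 1, where the others had 8.71 to 10.1. Mrpl38 had 7.08 in CD8+ T cell muMt-/- replicate 1, where the others had 1.64 to 3.33, and this is the library with the most macrophage marker RNA of its group (32.6 molecules per 10000). Mrpl45 had 4.36 in TAM WT replicate 6, where the others had 10.2 to 11.995. No summed level stood apart in this way. What sets these libraries apart was not tested.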

How the results depend on the processing

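No Mrpl or Mrps gene had an adjusted p under 0.05 in the 6 comparisons within a cell type or in either interaction, by edgeR or DESeq2, under the alternatives run for each or with any library left out (lowest and highest count 0). DESeq2 set no adjusted p for these genes in TAM GABA against muMt-/-, and the interactions were not run with a mean above 5 or the covariate. At an unadjusted p, edgeR and DESeq2 gave 13 and 9 genes in TAM muMt-/- against WT, 7 and 4 in TAM GABA against muMt-/-, 4 and 1 in TAM GABA against WT, 4 and 0 in CD8+ T cell muMt-/- against WT, 1 and 0 in CD8+ T cell GABA against muMt-/-, and 1 and 1 in CD8+ T cell GABA against WT. edgeR gave 7 in the interaction for B cell loss and 3 in that for GABA. The shares of all genes at an unadjusted p, given above, are those of edgeR, with none for DESeq2's counts.

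In WT TAMs against CD8+ T cells the 5 calls were 3 with DESeq2 size factors, 0 with total molecules alone, 1 with a mean above 5, 3 with the replicate block, 3 with 12 libraries and 0 by DESeq2's Wald test, and 3 to 5 with a library left out. The median of 0.28 there was 0.12 with DESeq2 size factors, -0.038 with total molecules alone, 0.0062 with a mean above 5 and 0.13 by DESeq2, and 0.18 to 0.44 with a library left out (0.44 without CD8+ T cell WT replicate 6). Its summed level, 0.02, was 0.38 with effective library sizes.

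Of the other medians, CD8+ T cell muMt-/- against WT turned to -0.15 with a mean above 5, and GABA against WT there was 0.16 with that filter and 0.14 with the covariate. The covariate also gave -0.19 in TAM muMt-/- against WT, -0.0013 in TAM GABA against WT, -0.019 in CD8+ T cell muMt-/- against WT and 0.14 in CD8+ T cell GABA against muMt-/-. With effective library sizes the sums in CD8+ T cells were 0.16 for muMt-/- against WT and 0.40 for GABA against WT. The cause was not tested. With a library left out, medians and sums ran from -0.40 to -0.28 and -0.44 to -0.35 in TAM muMt-/- against WT, 0.19 to 0.34 and 0.25 to 0.34 in TAM GABA against muMt-/-, -0.14 to -0.04 and -0.13 to -0.06 in TAM GABA against WT, -0.0020 to 0.14 and -0.0051 to 0.07 in CD8+ T cell muMt-/- against WT, 0.19 to 0.29 and 0.18 to 0.26 in CD8+ T cell GABA against muMt-/-, and 0.31 to 0.47 and 0.22 to 0.29 in CD8+ T cell GABA against WT. The sum in WT TAMs against CD8+ T cells ran from -0.02 to 0.06.

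Values of single genes changed sign in 9 cases under the alternatives other than leaving out a library, and 13 of 86 did so without at least 1 library, none of them called. The latter were Mrpl36, Mrpl40 and Mrpl54 in TAM muMt-/- against WT, Mrpl3, Mrpl45 and Mrpl48 in TAM GABA against muMt-/-, Mrpl30 and Mrpl42 in CD8+ T cell muMt-/- against WT, Mrpl52 in CD8+ T cell GABA against WT, and Mrpl4, Mrpl24, Mrpl36 and Mrps36 in WT TAMs against CD8+ T cells. With the covariate the sign changed for Mrpl13 in TAM muMt-/- against WT (-0.12), Mrpl48 in TAM GABA against muMt-/- (0.18), Mrpl30 in CD8+ T cell muMt-/- against WT (0.41) and Mrpl42 in the 3 comparisons of CD8+ T cells (-0.49, -0.23 and -0.72). With the replicate block it was Mrpl30 in CD8+ T cell muMt-/- against WT (0.0034), and without a filter Mrpl24 (0.023) and Mrps36 (0.043) in WT TAMs against CD8+ T cells.

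Of 54 correlations between same-numbered libraries 4 were over 0.1, and 10 were best with their own number (-0.17 to 0.27). Pairs from different groups of mice cannot share a mouse, so they say nothing on pairing by animal. Among TAM and CD8+ T cell libraries of the same group and number, the highest was 0.25, for GABA-treated muMt-/- replicate 1. Whether such libraries share a mouse was not tested further, and the fits treated them as independent. The block gave medians of -0.32, 0.22, -0.07, 0.07, 0.25 and 0.43 in the 6 comparisons. Library sizes from the genes tested alone, chosen after seeing the data, changed no count and gave medians of -0.31, 0.22, -0.07, 0.07, 0.26 and 0.42. Depth limits single genes in CD8+ T cells most, with 63 of the 78 at 0 in at least 1 of 18 libraries against 12 in TAMs.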
